A study of Mus musculus with 18 samples.

Results

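Resting lung neutrophils of mice without Cybb were compared with those of wild-type mice, using 6 of the 18 samples of the series. The 6 samples were chosen by their labels: 3 libraries of naive CD101pos neutrophils from mice labelled CGD/CYBB KO and 3 from mice labelled WT, all male C57BL/6 mice aged 12 weeks that had received no treatment. CGD stands for chronic granulomatous disease, the immune deficiency that loss of the phagocyte NADPH oxidase causes, and the labels give no further allele, transgene or clone. Lungs were digested with collagenase, and live CD45+ CD11b+ Ly6G+ cells that also carried CD101, a surface protein of mature neutrophils, were sorted for RNA. Where a second pair of groups is set beside the naive pair, it is the same sort from female C57BL/6 mice aged 13 weeks that had received 20 µg of zymosan, a yeast cell wall preparation, into the nose 24 hours earlier, again with 3 libraries of each genotype. Nothing in the sources used here states whether the replicates of a group came from separate animals or from pools, and the p-values then cover only the spread among the samples, which may be technical.

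The oxidase is an enzyme complex that neutrophils assemble on the plasma membrane and on phagosomes when they meet a microbe. Its membrane core is a heterodimer of gp91phox, encoded by Cybb, and p22phox, encoded by Cyba, and its cytosolic subunits, p47phox and p40phox among them, join the core together with the GTPase Rac2. The complex passes electrons to oxygen to make superoxide, which helps to kill fungi and bacteria and also limits inflammation, so that patients and mice without it develop both infections and sterile granulomas. The comparison asks how the transcripts of unchallenged lung neutrophils differ when this enzyme is missing.

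Naive libraries held 33.7 to 52.6 M counts in WT and 53.4 to 63.8 M in CGD, and the fewest were in WT replicate 3. In the sort genes, Itgam, which encodes CD11b, had 531 to 686 CPM (counts scaled to library size) in CGD and 526 to 584 CPM in WT, and Cd101 had 254 to 384 CPM in CGD and 327 to 442 CPM in WT. Mitochondrially encoded transcripts took 0.510% to 0.652% of the counts in CGD and 0.587% to 0.764% in WT. Among the 6 libraries, CGD replicate 2 stood apart on the first principal component, which held 30.3% of the variance, at -76.4 against -21.8 to 39.8 for the other libraries. On the second component, with 24.1%, CGD replicate 3 stood apart at -74.0 against -2.84 to 34.7. CGD replicate 3 also held 214 CPM of Ly6g, the gene of the sort marker Ly6G, against 17.0 to 23.9 CPM in the other 5 libraries. The alarmin gene S100a8, named after its values were seen, was at 31646 CPM in that library and at 10645 to 13911 CPM in the others. Call counts are therefore given with each naive library left out, and fold changes and list medians wherever 1 library moved them by over 1.5 times.

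Cybb (ENSMUSG00000015340) was at 54.0, 50.8 and 59.5 CPM in the 3 CGD libraries and at 240.0, 249.6 and 283 CPM in the 3 WT libraries. The groups did not overlap, and the log2 fold change of CGD against WT was -2.23 ± 0.19 (SE, n = 3 and 3; edgeR quasi-likelihood test, adjusted p = 5.89e-06). Of the genes past the threshold of this test, Cybb was the only one lower in naive CGD cells (DESeq2 called 15 lower), and it was also past the threshold in every alternative fit that was run and with each of the 6 naive libraries left out. Reads over Cybb remained in CGD libraries, and the labels do not say which part of the gene was disrupted.

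None of the other 11 measured genes of the oxidase list passed the edgeR test or DESeq2 in naive cells, and 1 of them, Ncf4, was higher at an unadjusted p under 0.05. Cyba was at 880.5, 894 and 894 CPM in CGD and at 927, 825 and 686 CPM in WT, a log2 difference of 0.13 ± 0.23 (SE). Ncf1, the gene of p47phox, was at 296, 297 and 296 CPM in CGD and at 277, 189 and 192 CPM in WT, and Ncf4, the gene of p40phox, at 289, 314 and 473 CPM against 249.7, 205 and 250.2 CPM. The CGD libraries lay above WT for both genes, but neither difference passed (log2 fold changes 0.43 ± 0.27 and 0.61 ± 0.20 (SE), edgeR adjusted p = 0.841 and 0.45). Rac2 was at 2891, 2586 and 3959 CPM in CGD and at 3015, 2585 and 2326 CPM in WT, so the groups overlapped. The members Rac1, Cybc1, Hvcn1, Rap1a, Arhgdib and Vav1, had log2 fold changes between -0.08 and 0.24. Of the X-linked neighbours of Cybb, 0 of 9 measured genes passed the edgeR test, and 1 passed DESeq2 and an unadjusted p under 0.05. That gene was Xk, a membrane protein of red cells, with 0.749, 1.32 and 1.03 CPM in CGD and 0.332, 0.418 and 0.407 CPM in WT (log2 fold change 1.42 ± 0.39 (SE), edgeR adjusted p = 0.301).

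Of 16575 genes tested, 21 passed an adjusted p under 0.05 in naive cells (0.127%), 20 of them higher in CGD (0.121%). These 20 were Ear6, Enthd1, Ctsk, Wdfy1, Gpnmb, Tfec, Slc39a2, Mmp12, Oas1g, Areg, Csf2rb2, Marco, Bcl2l1, Spp1, Mreg, Ccl2, Awat1, Rab7b, Atp6v0d2 and Rab15. All 3 CGD libraries lay above all 3 WT libraries for each of the 20 genes, a separation found in 7.46% of all genes tested. The 20 genes were called from these same libraries, so their separation describes them and adds no support to the calls. The highest value was in CGD replicate 2 for 11 of the genes and in CGD replicate 3 for 9, and the lowest of the CGD values was in replicate 1 for 19. Of all genes tested, 49.9% had a log2 fold change above 0, and the median was -0.000505. At an unadjusted p under 0.05, 714 genes were higher (4.31%) and 433 lower (2.61%) in CGD. With scaling by library size alone that balance turned round, to 427 higher and 545 lower at an unadjusted p under 0.05 around a median of -0.0967, while 8 of the 20 genes were still called higher and Cybb lower.

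**Figure D1:**
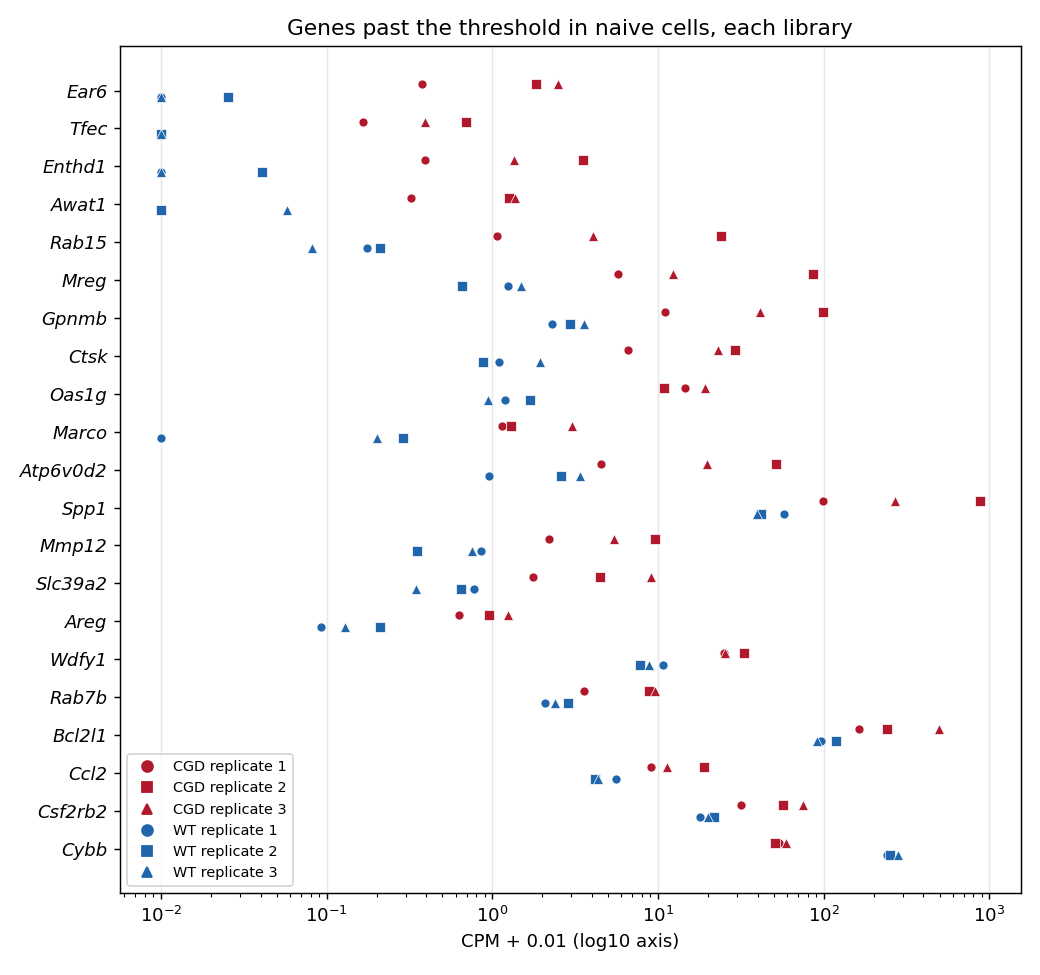
CPM plus 0.01 on a log10 axis for the 21 genes past the threshold in naive cells, with 1 point per library (CGD red, WT blue; circles, squares and triangles for replicates 1, 2 and 3). Cybb has the 3 CGD points at 50.8 to 59.5 CPM below the WT points, and for the other 20 genes the red points lie above the blue ones, with CGD replicate 1 nearest to WT for 19 of them.

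The number of calls depended on single libraries. Without CGD replicate 1 the test called 64 genes, including all 21. Without CGD replicate 2 it called 4 (Cybb, Ear6, Ctsk and Enthd1), and without CGD replicate 3 it called 10, of which 9 were among the 21. Leaving out WT replicate 1, 2 or 3 left 2, 2 and 3 calls, with Cybb and Ear6 in each and Ctsk in the last. Cybb and Ear6 were thus called in all 6 leave-out fits, while the other 19 genes lost the threshold in at least 2 of them. DESeq2 called 107 of the 28513 genes with a count, 92 of them higher in CGD, and the 107 included all 21. A fit of the 6 naive libraries alone, with 4 residual degrees of freedom in place of 12, called 6 genes. Only 3 of the 21 were among them, namely Cybb, Oas1g and Wdfy1. Ear6 missed the threshold in that fit (edgeR adjusted p = 0.0615), and the other genes of the 21 lost it too.

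Fold changes also moved with single libraries. Without CGD replicate 2 the log2 fold change was 4.04 for Rab15 and 3.03 for Mreg, against 5.96 and 4.97 with all libraries. The same fit gave 2.41 for Atp6v0d2, 1.996 for Spp1, 3.17 for Gpnmb and 2.57 for Mmp12. Without CGD replicate 3 Slc39a2 was at 2.40, and Marco was at 2.90 without WT replicate 1 and at 4.43 without WT replicate 2. The fitted values of Ear6, Enthd1, Tfec and Awat1, which had 0 to 2 counts over the WT libraries, moved as well and are not used. For the other 8 of the 20 genes and for Cybb, no naive library moved the fold by over 1.5 times.

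**Figure D2:**
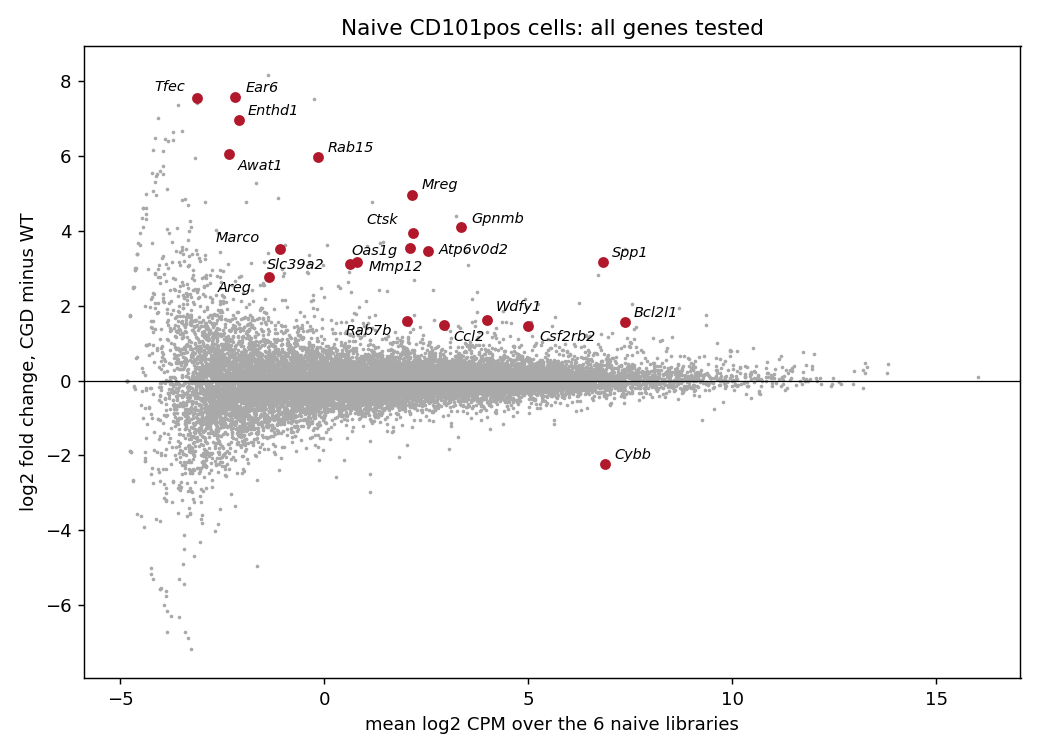
Log2 fold change of CGD against WT (y axis) by mean log2 CPM over the 6 naive libraries (x axis) for the 16575 genes tested, with the 21 genes past the threshold in red. Cybb at -2.23 is the only red point below 0, and among the red points the 5 with the largest fitted values, from 5.96 to 7.57, are genes with few or no WT counts.

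Several of the 20 genes act in lysosomes or in their transport. Gpnmb and Atp6v0d2 stood in the lysosome list, while Ctsk, Rab7b, Rab15, Mreg and Tfec stood in no list and were placed with them after the calls were known. Gpnmb (ENSMUSG00000029816) encodes a transmembrane glycoprotein of lysosomes and melanosomes that activated macrophages make. It was at 10.98, 98.4 and 41.4 CPM in CGD and at 2.28, 2.94 and 3.54 CPM in WT, a log2 fold change of 4.11 ± 0.66 (SE, n = 3 and 3; edgeR adjusted p = 0.0237). The 3 CGD libraries spanned a wide range, with replicate 2 highest and replicate 1 lowest, and each was above WT. Atp6v0d2 (ENSMUSG00000028238), a subunit of the vacuolar proton pump of macrophages and osteoclasts, was at 4.55, 51.5 and 19.8 CPM in CGD and at 0.947, 2.59 and 3.37 CPM in WT. Its log2 fold change was 3.47 ± 0.65 (SE; edgeR adjusted p = 0.0469), and CGD replicate 1 lay close to the highest WT library. Ctsk (ENSMUSG00000028111) encodes cathepsin K, a collagen-cutting lysosomal protease known from osteoclasts. It was at 6.60, 29.3 and 23.1 CPM in CGD and at 1.08, 0.867 and 1.94 CPM in WT (log2 fold change 3.94 ± 0.56 (SE), edgeR adjusted p = 0.00729). It passed in 4 of the 6 leave-out fits.

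Rab7b (ENSMUSG00000052688), a small GTPase of late endosomes, was at 3.57, 8.81 and 9.64 CPM in CGD and at 2.08, 2.83 and 2.37 CPM in WT. Rab15 (ENSMUSG00000021062), a GTPase of recycling endosomes, was at 1.06, 24.0 and 4.04 CPM in CGD and at 0.166, 0.201 and 0.0718 CPM in WT. Mreg (ENSMUSG00000039395), which encodes melanoregulin, a protein of melanosome and lysosome transport, was at 5.76, 86.2 and 12.4 CPM in CGD and at 1.23, 0.6503 and 1.48 CPM in WT. CGD replicate 2 was the highest library by far for Rab15 and Mreg but not for Rab7b, where replicates 2 and 3 were close. The log2 fold changes were 1.59 ± 0.31 for Rab7b, 5.96 ± 1.12 for Rab15 and 4.97 ± 0.91 for Mreg (SE; edgeR adjusted p = 0.0459, 0.048 and 0.0454). Of the 21 genes, 4 share part of their locus with another protein-coding gene on the opposite strand in GENCODE M21, namely Rab15 with Fntb, Ccl2 with Gm17268, Mmp12 with Mmp1b and Wdfy1 with Mrpl44. Reads of each pair may not have been told apart, since the strand setting of the counts is not given in the sources used here.

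Tfec (ENSMUSG00000029553) encodes a transcription factor of the MiT family, whose members Mitf and Tfeb drive lysosomal genes. It had 79 counts over the CGD libraries, at 0.155, 0.685 and 0.385 CPM, and 0 counts in WT. It was thus at least 22.2-fold higher in CGD, against a floor of 3 counts over the WT group (edgeR adjusted p = 0.0238). Mitf, named here after its values were seen, was at 10.5, 13.8 and 3.83 CPM in CGD and at 8.86, 9.45 and 9.02 CPM in WT, with overlapping groups and a log2 difference of 0.04 ± 0.47 (SE).

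In the whole lysosome list, 2 of 24 genes tested passed, both higher (Gpnmb and Atp6v0d2), against 0.121% of all genes tested. The median log2 fold change of its members was 0.37, against -0.000505 for all genes tested. Of its 24 members 22 were above 0, against 49.9% of all genes tested. In 11 of the 24 (45.8%) all CGD libraries lay above all WT libraries, against 7.46% of all genes. The mean log2 CPM over the list was 6.65, 7.33 and 6.85 in CGD and 6.37, 6.45 and 6.38 in WT. The median was 0.23 without CGD replicate 2. This and the other lists were chosen with earlier results of these data known. Their counts and shares therefore describe the members and add no support to the calls.

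Mmp12 (ENSMUSG00000049723), the macrophage elastase, was at 2.18, 9.57 and 5.42 CPM in CGD and at 0.847, 0.341 and 0.742 CPM in WT (log2 fold change 3.16 ± 0.55 (SE), edgeR adjusted p = 0.031). Spp1 (ENSMUSG00000029304) encodes osteopontin, a secreted matrix protein and cytokine that attracts and retains leukocytes. It was at 99.1, 873 and 269 CPM in CGD and at 57.3, 41.6 and 39.7 CPM in WT. The log2 fold change was 3.16 ± 0.59 (SE; edgeR adjusted p = 0.0454), and CGD replicate 1 lay less far above the highest WT library than CGD replicates 2 and 3 did. In the list of extracellular matrix proteases and their inhibitors, Mmp12 and Spp1 were the 2 of 19 genes that passed, against 0.121% of all genes tested called higher. The median of that list was 0.47 (0.28 without CGD replicate 3), and 15 of its 19 members were above 0, against 49.9% of all genes tested.

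Ccl2 (ENSMUSG00000035385), the chemokine that draws monocytes, was at 9.05, 19.0 and 11.3 CPM in CGD and at 5.58, 4.13 and 4.35 CPM in WT. Its log2 fold change was 1.48 ± 0.28 (SE; edgeR adjusted p = 0.0454). Ccl2 and Spp1 were the 2 of 36 tested cytokine and chemokine genes that passed, both higher, against 0.121% of all genes tested. The median of the list was 0.84, 31 of 36 members were above 0, and 16 were higher at an unadjusted p under 0.05. Of all genes tested, 49.9% were above 0 and 4.31% higher at that p. The list mean of log2 CPM was 2.84, 3.61 and 3.05 in CGD and 2.56, 2.32 and 2.33 in WT, and the median was 0.52 without CGD replicate 2. Areg (ENSMUSG00000029378), amphiregulin, a ligand of the epidermal growth factor receptor that is made in tissue repair, was at 0.622, 0.9496 and 1.23 CPM in CGD and at 0.0831, 0.201 and 0.120 CPM in WT. Its WT values rest on 5 to 13 counts per library (log2 fold change 2.76 ± 0.49 (SE), edgeR adjusted p = 0.035).

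Csf2rb2 and Bcl2l1 each passed as the 1 called member of a list. Csf2rb2 (ENSMUSG00000071714), the mouse interleukin-3 receptor beta chain, was at 31.8, 56.8 and 74.8 CPM in CGD and at 17.96, 21.7 and 20.1 CPM in WT (log2 fold change 1.45 ± 0.26 (SE), edgeR adjusted p = 0.0384). Its close paralog Csf2rb, the common beta chain of the GM-CSF, interleukin-3 and interleukin-5 receptors, named after its values were seen, was at 431, 593 and 781 CPM against 373, 408 and 407 CPM. That difference, at 0.60 ± 0.24 (SE), did not pass, and reads that both genes could claim make the split between them uncertain. In the list of granulopoiesis regulators, which held Csf2rb2, the other 17 members did not pass. Of its 18 members 8 were above 0, against 49.9% of all genes tested, and 10 below 0. The median was -0.02 (-0.07 to -0.005 over the leave-out fits). Bcl2l1 (ENSMUSG00000007659) encodes the anti-apoptotic protein BCL-XL. It was at 162, 239.7 and 497 CPM in CGD and at 96.8, 118 and 90.5 CPM in WT, a log2 fold change of 1.56 ± 0.29 (SE; edgeR adjusted p = 0.0408). It was the 1 of 24 genes of the cell survival and death list that passed, against 0.121% of all genes tested called higher. The median of that list was 0.14 (0.05 without CGD replicate 2).

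Oas1g (ENSMUSG00000066861) encodes a 2′-5′ oligoadenylate synthetase, an interferon-induced sensor of double-stranded RNA. It was at 14.5, 10.9 and 19.1 CPM in CGD and at 1.18, 1.67 and 0.933 CPM in WT, with no overlap and with the 3 CGD libraries close together. The log2 fold change was 3.54 ± 0.61 (SE; edgeR adjusted p = 0.031). The near-identical paralog Oas1a, at 61.7, 52.9 and 76.4 CPM in CGD and 15.1, 22.9 and 10.6 CPM in WT, had a log2 fold change of 1.97 ± 0.45 (SE) and did not pass (edgeR adjusted p = 0.154). Assignment of reads between the paralogs is uncertain. Of 44 tested interferon-stimulated genes in the list, which did not hold Oas1g, 0 passed the edgeR test, 1 (Oas1a) was higher by DESeq2 and 10 were higher at an unadjusted p under 0.05. Their median log2 fold change was 0.50, 38 of 44 were above 0, and in 20 of 44 (45.5%) all CGD libraries lay above all WT libraries. Of all genes tested, 4.31% were higher at an unadjusted p under 0.05, 49.9% were above 0 and 7.46% showed that separation. The list mean of log2 CPM was 5.52, 5.13 and 5.28 in CGD and 4.74, 5.08 and 4.50 in WT. In this list CGD replicate 1 was the highest library, unlike for the lysosomal and cytokine genes, and the median stayed between 0.37 and 0.64 over the leave-out fits.

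The 250 bases before the annotated start of 3 genes are shown because they hold the interferon response element searched for, which is GAAA, then 2 bases of any kind, then GAAA, on either strand, and because Oas1g is the interferon-induced gene that passed. Sequences are RefSeq's on GRCm38.p6, on the strand of the gene, with matches to this motif and to the AP-1 site TGANTCA in capitals. They lie at chr5:120887614-120887863 (minus strand) for Oas1g, chr5:104434861-104435110 (plus strand) for Spp1 and chrX:9469325-9469574 (minus strand) for Cybb.
Oas1g: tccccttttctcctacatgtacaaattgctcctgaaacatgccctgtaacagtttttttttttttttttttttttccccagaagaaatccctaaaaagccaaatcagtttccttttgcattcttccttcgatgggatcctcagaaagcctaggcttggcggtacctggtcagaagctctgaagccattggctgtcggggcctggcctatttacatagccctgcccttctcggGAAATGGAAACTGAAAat
Spp1: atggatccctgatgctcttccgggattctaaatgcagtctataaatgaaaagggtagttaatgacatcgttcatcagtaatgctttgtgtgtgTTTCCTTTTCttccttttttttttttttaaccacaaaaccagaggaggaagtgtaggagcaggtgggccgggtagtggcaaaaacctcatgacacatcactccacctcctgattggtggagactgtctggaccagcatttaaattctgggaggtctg
Cybb: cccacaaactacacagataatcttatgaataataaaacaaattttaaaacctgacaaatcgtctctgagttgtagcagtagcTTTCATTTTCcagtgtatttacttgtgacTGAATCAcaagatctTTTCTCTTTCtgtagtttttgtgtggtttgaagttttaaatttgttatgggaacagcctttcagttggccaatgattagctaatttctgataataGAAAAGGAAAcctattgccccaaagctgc

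The Oas1g window held a pair of overlapping elements, which began 18 and 12 bases before the start. The Spp1 window held 1, beginning 157 bases before the start, and the Cybb window held elements at 168, 124 and 29 bases and an AP-1 match at 139 bases. Of the 21 genes past the threshold, 17 had at least 1 promoter window in the table, with 25 windows in all. These 3 genes had the interferon element, which occurred in 2.98% of 32851 windows of that length. The AP-1 match occurred in windows of Cybb, Mmp12 and Rab15, against 6.75% of all windows, and the MiT-family M-box, TCACATGA or TCACGTGA, in windows of Mmp12 and Rab15, against 1.61%. A match describes these letters only. Several genes have more than 1 window, so the counts of genes cannot be set directly against these percentages of windows.

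Marco (ENSMUSG00000026390), a scavenger receptor of macrophages that binds bacteria and particles, was at 1.13, 1.29 and 3.01 CPM in CGD and at 0, 0.279 and 0.191 CPM in WT. Its log2 fold change was 3.52 ± 0.64 (SE; edgeR adjusted p = 0.0398), on 26 counts over the WT libraries. Ear6 (ENSMUSG00000062148), a secreted ribonuclease of the eosinophil-associated family, was at 0.367, 1.82 and 2.47 CPM in CGD and had 1 count in WT against 297 in CGD. The ratio of counts, scaled to library size, was 251 with a 95% counting interval of 44.6 to 9932 (edgeR adjusted p = 0.000365). Its relative Ear2, named after its values were seen, was at 42.9, 56.5 and 45.6 CPM in CGD and 42.2, 38.2 and 38.5 CPM in WT, with a log2 difference of 0.29 ± 0.32 (SE), and reads of the Ear genes may be shared. Chil3, a chitinase-like protein of macrophages and neutrophils, was at 58.4, 182 and 286 CPM in CGD and at 28.8, 48.6 and 47.0 CPM in WT, just outside the threshold (log2 fold change 2.08 ± 0.41 (SE), edgeR adjusted p = 0.0535).

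The remaining genes past the threshold stood in no list except Slc39a2, which stood in the metallothionein and zinc list. Slc39a2 (ENSMUSG00000072572), a zinc importer, was at 1.75, 4.47 and 9.12 CPM in CGD and at 0.764, 0.635 and 0.335 CPM in WT (log2 fold change 3.11 ± 0.53 (SE), edgeR adjusted p = 0.0276), and it overlaps the gene Mettl17. The other 9 members of that list did not pass, and its median was 0.00 (-0.11 to 0.16 over the leave-out fits). Wdfy1 (ENSMUSG00000073643), an endosomal protein that acts in signalling from Toll-like receptors, was at 24.8, 33.2 and 25.5 CPM in CGD and at 10.7, 7.79 and 8.76 CPM in WT. Its CGD values lay close together, with a log2 fold change of 1.62 ± 0.25 (SE; edgeR adjusted p = 0.0156). Enthd1 (ENSMUSG00000050439) had 337 counts in CGD, at 0.381, 3.52 and 1.35 CPM, and 2 in WT, a scaled ratio of 142 (95% counting interval 39.1 to 1179). Awat1 (ENSMUSG00000015665), an acyltransferase that makes wax esters, had 187 counts in CGD, at 0.311, 1.25 and 1.36 CPM, and 2 in WT, a scaled ratio of 78.9 (21.5 to 656). Both passed the edgeR test (adjusted p = 0.00729 and 0.0454). Enthd1, Tfec, Awat1, Rab7b and Rab15 fell outside the rule for named genes and were named after their values were seen.

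Another 11 genes had an adjusted p between 0.05 and 0.1, 10 of them higher in CGD and Anln lower. Among them, named after their values were seen, Upp1, uridine phosphorylase, was at 33.2, 56.6 and 173 CPM in CGD and at 19.5, 24.8 and 19.3 CPM in WT (edgeR adjusted p = 0.0525). The interferon-induced Ifi27l2a was at 393, 249.9 and 299 CPM in CGD and at 117, 144 and 103 CPM in WT (edgeR adjusted p = 0.0677). Igha, the constant region of immunoglobulin A, was at 13.4, 8.59 and 6.99 CPM in CGD and at 0.0332, 0 and 0.144 CPM in WT (edgeR adjusted p = 0.0535). Jchain, which joins immunoglobulin A into dimers, had 828 counts in CGD and 2 in WT (scaled ratio 349, 95% counting interval 96.4 to 2889; edgeR adjusted p = 0.0803). Both immunoglobulin genes were highest in CGD replicate 1 and lowest of the CGD libraries in replicate 3.

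Of the 31 process lists, 7 held a gene that was higher, the oxidase list held Cybb, and in 23 no member passed. Counts at an unadjusted p under 0.05 stand beside shares of 4.31% higher and 2.61% lower over all genes tested. The share of all genes above 0 was 49.9%. Medians of members were above 0 in 26 lists and below 0 in 5, and with each naive library left out in turn 16 stayed above 0 and 3 below 0 throughout. In the secondary and tertiary granule list, which holds the neutrophil granule proteins, 0 of 19 members passed the edgeR test, 1 (Chil3) was higher by DESeq2 and 5 were higher at an unadjusted p under 0.05. The median was 0.54, but the list mean of log2 CPM was 8.85 in CGD replicate 3 against 6.84 to 7.16 in the other 5 libraries, and the median was -0.01 without that library. The glycolysis and hypoxia list had 0 of 30 past the edgeR test or DESeq2, 3 higher at an unadjusted p under 0.05, a median of 0.28 and 27 of 30 members above 0, with CGD replicate 3 again the highest library at a mean log2 CPM of 7.07 against 6.34 to 6.57. Without that library its median was 0.08. Lists below 0 included mitochondrially encoded genes, with 0 of 13 past the edgeR test or DESeq2, 2 lower at an unadjusted p under 0.05, a median of -0.30 and 12 of 13 members below 0. That median was -0.20 without CGD replicate 1, -0.46 without CGD replicate 2 and -0.48 without WT replicate 1. In the heat shock list 0 of 16 passed the edgeR test, 1 (Hspb1) was lower by DESeq2 and 3 were lower at an unadjusted p under 0.05, with a median of -0.24 (-0.11 without WT replicate 2). Hspb1, a small heat shock protein gene, was at 2.83, 1.95 and 2.05 CPM in CGD and 7.31, 9.74 and 5.29 CPM in WT (edgeR adjusted p = 0.202). Medians of the ribosomal protein, nuclear oxidative phosphorylation, antigen presentation, integrin, and unfolded protein response lists lay between 0.00 and 0.05 in size. Over the leave-out fits these lists ranged from -0.09 (unfolded protein response) to 0.17 (antigen presentation). They had no member past the edgeR test or DESeq2, and at an unadjusted p under 0.05 the integrin list had 1 higher and 1 lower, the antigen presentation list 1 lower and the other lists 0.

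Of the lists with a median above 0 and no member past the edgeR test, 4 more are described. In the cell cycle list 0 of 29 passed the edgeR test or DESeq2, 7 were higher at an unadjusted p under 0.05 and the median was 0.34 (0.54 without CGD replicate 1), at low levels. The ribonucleotide reductase gene Rrm2 was at 1.77, 3.05 and 3.46 CPM in CGD and at 0.797, 1.42 and 1.34 CPM in WT. In the lipid handling list, with 0 of 21 past the edgeR test or DESeq2, 3 higher at an unadjusted p under 0.05 and a median of 0.28 (0.15 without WT replicate 1), the lipid droplet gene Plin2 was at 189.8, 217 and 339 CPM in CGD and at 125, 139.7 and 126 CPM in WT. All 10 tested Fc gamma receptor and signalling genes were above 0, with a median of 0.23, 0 past the edgeR test or DESeq2 and 2 higher at an unadjusted p under 0.05. The inhibitory receptor gene Fcgr2b in that list was at 21.0, 72.2 and 33.4 CPM in CGD and at 16.8, 21.1 and 20.6 CPM in WT, so that CGD replicate 1 lay at the WT level. Of the IL-1 family and inflammasome genes, 0 of 23 passed the edgeR test or DESeq2 and 2 were higher at an unadjusted p under 0.05, with a median of 0.21 (0.14 without CGD replicate 3). The pyrin gene Mefv among them was at 52.8, 51.6 and 65.5 CPM in CGD and at 32.0, 39.5 and 34.5 CPM in WT, without overlap (edgeR adjusted p = 0.45).

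**Figure D3:**
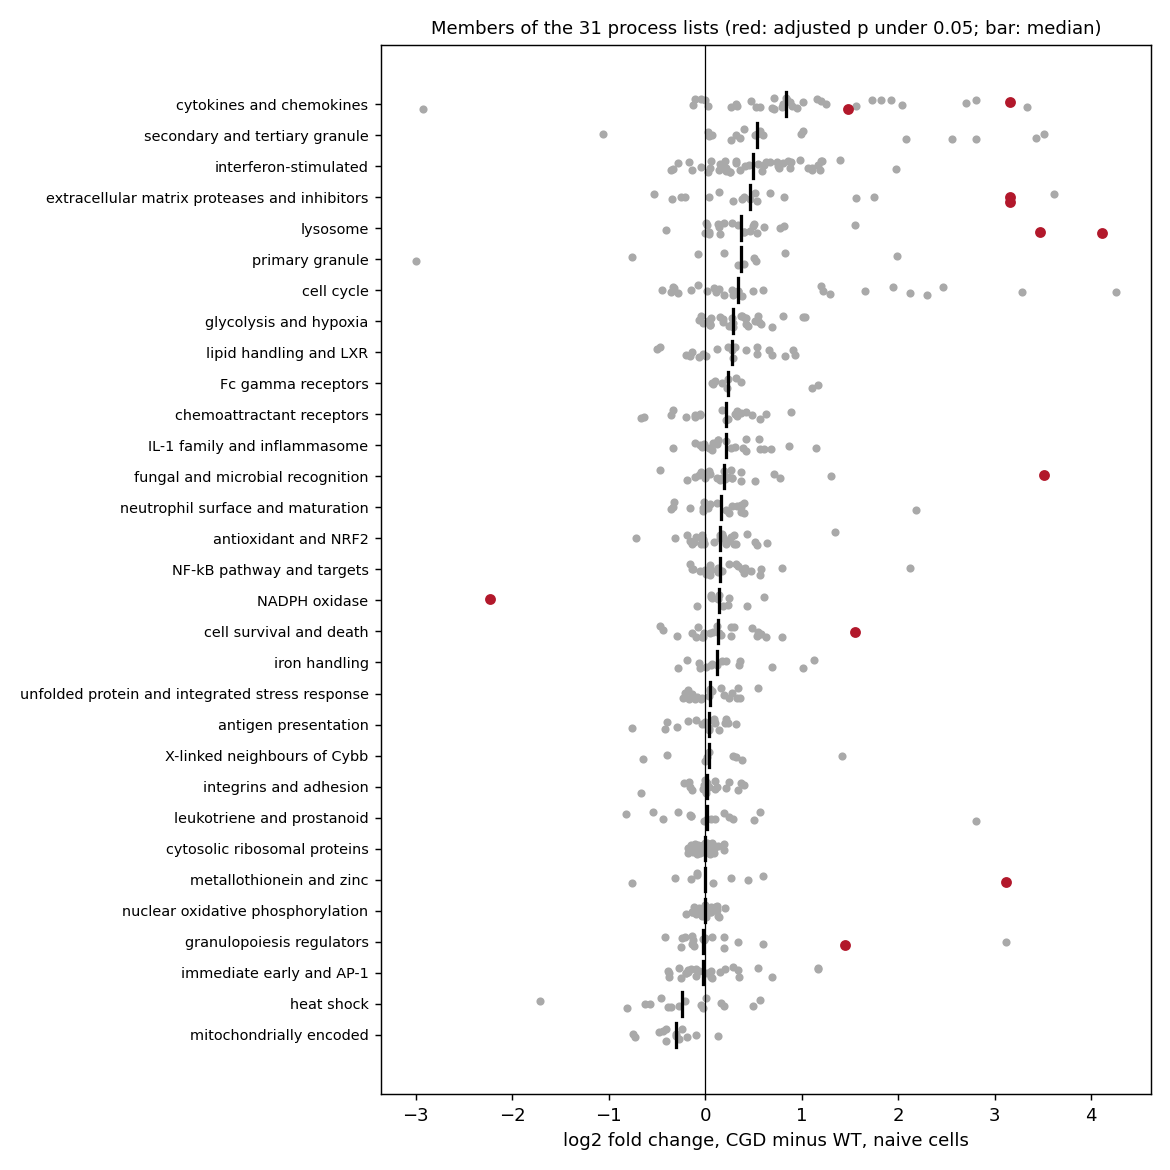
Log2 fold changes of CGD against WT in naive cells (x axis) for the tested members of the 31 process lists (y axis), with genes past the threshold in red and each list's median as a black bar. The cytokine and chemokine list has the highest median, 0.84, and the mitochondrially encoded list the lowest, -0.30.

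Markers of other cell types were measured in the same libraries, since several of the genes above are also made by macrophages. In bulk samples, fewer cells of a type and less RNA per cell cannot be told apart. Of 16 alveolar macrophage markers, 1 passed the edgeR test (Marco) and 2 were higher by DESeq2 (Marco and Chil3). At an unadjusted p under 0.05, 5 were higher and 0 lower, against 4.31% and 2.61% of all genes tested. In 5 of the 16 (31.25%) all CGD libraries lay above all WT libraries, against 7.46% of all genes, and 12 were above 0, against 49.9%. The median log2 fold change was 0.46 (0.29 without WT replicate 1), and the summed level was 509 to 861 CPM in CGD and 446 to 486 CPM in WT. Without Marco and Chil3 the other 14 markers summed to 449, 623 and 572 CPM in CGD and to 417, 437 and 406 CPM in WT. Most of each of these sums was Cd68, which also stood in the lysosome list. Cd68 was at 291, 404 and 341 CPM in CGD and at 261, 270 and 255 CPM in WT, so the separation of the sums describes mainly that gene. The defining marker Siglecf was at 15.4 to 46.6 CPM in CGD and 25.3 to 31.6 CPM in WT, and Fabp4 at 6.00 to 9.57 CPM and 3.69 to 5.98 CPM. The share of this marker signal in the higher lysosomal and matrix genes was not tested. Monocyte and interstitial macrophage markers (0 of 16 past the edgeR test, Trem2 higher by DESeq2, 2 higher and 1 lower at an unadjusted p under 0.05, median 0.26, which was 0.10 without CGD replicate 2, 0.15 without WT replicate 1 and 0.39 without CGD replicate 3) summed to 2967 to 4438 CPM in CGD and 3823 to 4310 CPM in WT, which overlap. Most of each of these sums was Nr4a1, which also stood in the immediate early list. It was at 2799, 3078 and 1624 CPM in CGD and at 3188, 2796 and 2593 CPM in WT. The overlap of the sums thus describes mainly Nr4a1 and says little about the other markers. The complement gene C1qb was at 8.498 to 15.3 CPM in CGD and 9.15 to 10.98 CPM in WT.

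Eosinophil markers summed to 22.7 to 54.2 CPM in CGD and 31.1 to 38.2 CPM in WT, with Ear6 as the 1 of 7 tested that passed. Their median was -0.01 (-0.09 to 0.21 over the leave-out fits). At an unadjusted p under 0.05, 2 of the 7 were higher and 0 lower, against 4.31% and 2.61% of all genes tested. Prg3 was at 0 in every naive library, and Epx had 5 counts over the CGD libraries and 9 over the WT libraries. Prg2 had 37 counts over the CGD libraries, with 0 in replicate 3, and 0 over the WT libraries, and it did not pass (edgeR adjusted p = 0.440). B cell markers had 0 of 10 past the edgeR test or DESeq2 and 4 lower at an unadjusted p under 0.05, against 2.61% of all genes tested. Their median was -0.51, with summed levels of 315 to 454 CPM in CGD against 450 to 474 CPM in WT. Igha and Jchain thus differed in direction from these markers, which were all below 0. Epithelial markers, with a median of -0.54, summed to 660 to 1858 CPM in CGD and 1815 to 2029 CPM in WT, and endothelial markers, with a median of -0.59, to 205 to 393 CPM and 346 to 502 CPM. In both lists no member passed the edgeR test or DESeq2, with 2 and 0 lower at an unadjusted p under 0.05. Without CGD replicate 3 the medians were -0.28 for epithelial and -0.33 for endothelial markers, and the B cell median was -0.34 without WT replicate 3. Basophil and mast cell markers summed to 2118 to 4244 CPM in CGD and 1842 to 1982 CPM in WT, without overlap and highest in CGD replicate 3. Almost all of that sum was Hdc, histidine decarboxylase, at 2208, 2103 and 4223 CPM in CGD and at 1818, 1919 and 1965 CPM in WT, while the defining markers Mcpt8, Fcer1a, Ms4a2 and Tpsb2 had at most 9 counts in either group. Of the 6 markers tested, 0 passed the edgeR test or DESeq2 and 1 was higher and 1 lower at an unadjusted p under 0.05. Erythroid markers summed to 587 CPM in CGD replicate 3 and to 155 to 297 CPM in the other libraries. The part of these markers in the genotype differences was not tested.

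**Figure D4:**
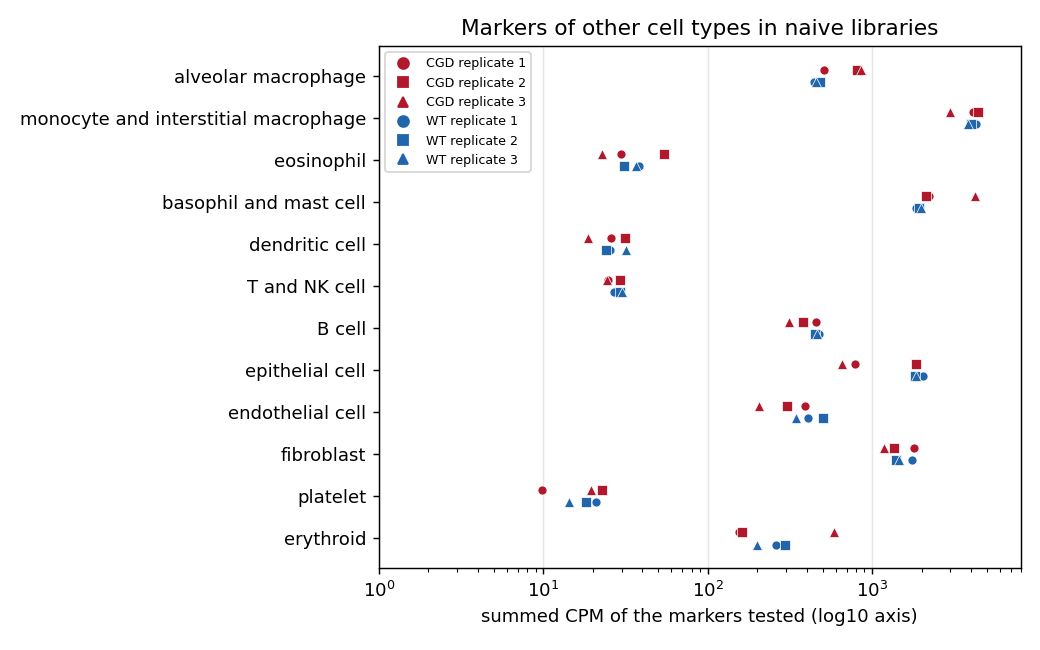
Summed CPM of the tested markers of 12 other cell types (x axis, log10) in each naive library, with CGD in red and WT in blue. The alveolar macrophage markers lie at 509 to 861 CPM in CGD and 446 to 486 CPM in WT and the basophil and mast cell markers at 2118 to 4244 CPM and 1842 to 1982 CPM, while the other 10 sums overlap between the genotypes. Single genes make up most of some sums, such as Nr4a1 for the monocyte and interstitial macrophage markers and Hdc for the basophil and mast cell markers.

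After zymosan, the same sort gave 878 genes past the threshold between the genotypes (5.3% of genes tested), 459 of them higher in CGD (2.77%). The libraries compared were other ones than in the naive comparison, but both tests took their spread from 1 fit of all 18 libraries. With scaling by library size alone the split was 308 higher and 490 lower. Of the 20 genes higher in naive CGD cells, 9 (45%) were also higher in CGD after zymosan, 1.96% of the 459 genes higher there, and none was lower. The 9 were Ear6, Ctsk, Gpnmb, Tfec, Slc39a2, Mmp12, Spp1, Ccl2 and Awat1. For 19 of the 20 genes the log2 fold change was smaller after zymosan than in naive cells, and Mmp12 was the exception. The 20 genes were called on their naive values, which favours larger values there. Mmp12 was at 44.0, 21.3 and 17.0 CPM in CGD and at 1.72, 0.840 and 1.92 CPM in WT after zymosan, with a log2 fold change of 4.19 ± 0.55 (SE; edgeR adjusted p = 0.000359) beside 3.16 in naive cells. Gpnmb was at 172, 118 and 134 CPM against 21.0, 15.4 and 26.8 CPM, so that WT cells after zymosan lay within the range of naive CGD cells. Spp1 was at 1045, 1318 and 1700.3 CPM in CGD and at 282, 161 and 295 CPM in WT, and here the 3 CGD libraries lay closer together than in naive cells.

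The other 11 genes did not pass after zymosan, though 19 of the 20 genes had a log2 fold change above 0 there. Atp6v0d2 was at 83.5, 76.7 and 98.8 CPM in CGD and at 27.7, 16.8 and 16.9 CPM in WT, without overlap. Its log2 fold change was 2.08 ± 0.60 (SE; edgeR adjusted p = 0.0561). Bcl2l1 was at 1364, 1135 and 1161 CPM against 586, 762 and 619 CPM, also without overlap (0.90 ± 0.28 (SE), edgeR adjusted p = 0.0762). Wdfy1 was at 14.9, 21.2 and 21.0 CPM in CGD and at 17.5, 10.1 and 16.6 CPM in WT, and Oas1g at 19.5, 19.2 and 36.6 CPM against 5.84, 23.8 and 11.4 CPM, with overlapping groups for both. Mreg was at 30.6, 34.8 and 31.5 CPM against 27.0, 6.66 and 28.1 CPM. Rab7b was at 13.9, 14.1 and 19.7 CPM in CGD and 14.98, 15.98 and 15.04 CPM in WT, a log2 difference of 0.05 ± 0.29 (SE). Among the 20 genes, a difference between the 2 genotype effects passed for Areg alone.

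The interaction test compared the naive genotype difference with that after zymosan and called 53 genes (0.32% of genes tested), 26 with the higher value in naive cells and 27 with the lower. With scaling by library size alone it called 13, with 4 and 9. For Areg the log2 fold change was 2.76 in naive cells and -0.60 ± 0.42 (SE) after zymosan, where CGD libraries held 0.621, 0.892 and 1.42 CPM and WT libraries 0.957, 2.11 and 1.43 CPM. The difference was 3.36 (edgeR interaction, adjusted p = 0.0321). CGD levels of Areg were alike in both pairs of libraries, and it was the WT level that lay lower in the naive pair. Of the 53 genes, 50 had passed the genotype test after zymosan and 1, Areg, in naive cells. Zymosan, sex and age differ together between the pairs, so the interaction cannot be told apart from an effect of sex or age on the genotype difference.

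**Figure D5:**
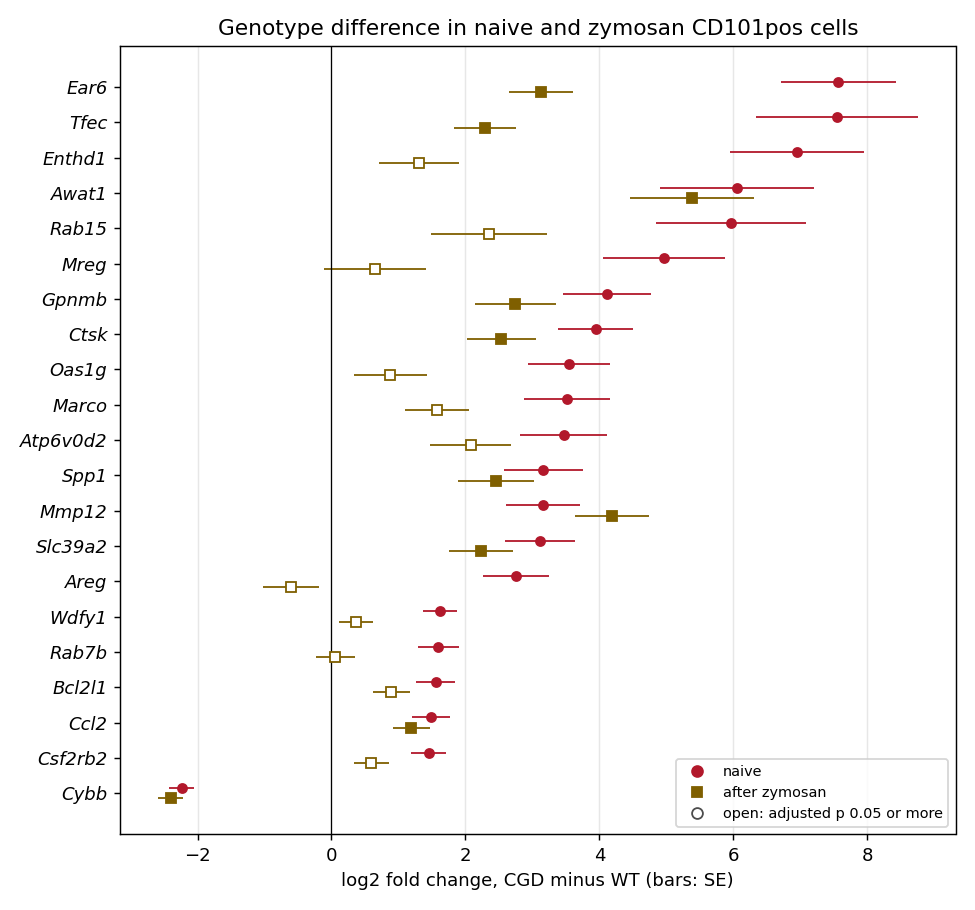
Log2 fold change of CGD against WT (x axis, bars ± SE) for the 21 genes past the threshold in naive cells, in naive (red circles) and zymosan (brown squares) CD101pos cells, with open symbols for an adjusted p of 0.05 or more. Cybb is lower in both pairs (-2.23 and -2.40), and Areg is the gene whose value lies above 0 in naive cells and below 0 after zymosan.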

How the data were processed

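The authors deposited 1 table of raw read counts per gene for 18 libraries. Per the submitters' processing notes they used STAR 2.5.1a, Subread and featureCounts 1.4.6-p5, and the labels' protocols name the SMARTer kit. Genome build, annotation and strand setting: not given in the sources used here. Of 40757 lines, 276 were repeats of a gene ID and were dropped.

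The test was the robust quasi-likelihood test of edgeR 4.0.16 (R 4.3.3) with TMM factors and filterByExpr, in 1 fit of all libraries with 12 residual degrees of freedom. Its p-values were adjusted by Benjamini-Hochberg over 16575 genes. The SE is the log2 fold change over the root of F, CPM use TMM factors, and list means use log2 CPM with a prior count of 2. Counting intervals are exact, at 95%, and cover counting error only.

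Named genes were the 15 largest changes per direction with at least 10 CPM and no overlap, up to 4 called members of each list (otherwise the 2 with the lowest p), all oxidase genes (1 is not reported here) and X-linked neighbours of Cybb, and naive genes passing the interaction. The members and the 44 lists were chosen with earlier results of these data known. Sex-linked genes matched the labelled sexes. Alternatives were RLE factors, library size only, DESeq2 1.42.0, no filter, at least 1 CPM in 3 libraries, only the groups compared, the replicate number as a block, and each library left out. The method was tested on simulated data.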

Additional observations from a re-analysis of the deposited data

Results flagged for a closer look

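The difference between the genotype effects of naive and zymosan CD101pos cells was tested by the interaction term, and 5 genes are listed here because it passed. Areg had a difference of 3.36, as described above. The 4 genes with the lowest interaction p, named after their values were seen, passed the genotype test after zymosan and did not pass it in naive cells. Ecm1, a secreted matrix protein, differed by -2.54 (naive -0.15 ± 0.21 (SE), zymosan 2.39), and Rhoh, a GTPase of blood cells, by -2.43 (naive 0.48 ± 0.20 (SE), zymosan 2.91). Mt2, a metallothionein, differed by -3.36 (naive 0.45 ± 0.32 (SE), zymosan 3.81), and Cd38, an NAD-consuming ectoenzyme, by -2.97 (naive -0.22 ± 0.29 (SE), zymosan 2.76). Sex and age differ between the pairs and cannot be told apart from zymosan.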

How the results depend on the processing

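Counts are of genes past the threshold in naive cells, after zymosan and for the interaction, which were 21, 878 and 53. RLE factors gave 20, 862 and 51. Library size only gave 9, 798 and 13, DESeq2 107, 1402 and 267, no filter 17, 888 and 119, the stricter filter 25, 928 and 64, and only the groups compared 6, 572 and 66. With each library left out in turn the counts ranged from 2 to 64, from 320 to 1125 and from 5 to 54. The replicate block gave 11, 107 and 3. Same-numbered naive libraries deviated together with correlations of 0.134, -0.036 and 0.223, and zymosan libraries with -0.244, -0.127 and 0.106, so the numbers were not taken as a pairing. Over 120 named genes and all settings, 142 of 1543 values lost the threshold, 26 gained it and none reversed. Of 572 list medians 24 moved by more than the spread, and the cause was not tested. Low counts limit Tfec, Ear6, Enthd1 and Awat1, with 0 to 2 counts over the WT libraries.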
